A study of Mus musculus with 15 samples.

Results

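The step from 24 to 42 h of activation was followed in mouse CD4 T cells on 4 of the 15 single-colour microRNA arrays of a time course. The 2 arrays of cells held for 42 h on plate-bound antibodies against CD3, the signalling part of the T cell receptor, and against the costimulatory receptor CD28 were set against the 2 arrays of cells held there for 24 h. All cells were taken with CD4 magnetic beads from spleen and lymph nodes of C57/B6 mice aged 6 to 8 weeks, and the labels of the 24 and 42 h groups name no other allele or agent. The other groups were naive cells, cells activated for 6, 12 or 65 h (2 arrays each), cells activated for 65 h and rested in medium with IL-2 to day 7 (1 array), and such rested cells restimulated for 18 h (2 arrays). The labels name no separate mice or cultures for the arrays of a group. The p-values then measure array-to-array spread alone, and that spread may be technical.

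MicroRNAs are short RNAs that guide Argonaute proteins to messenger RNAs and lower their translation and stability. A T cell that receives signals through its receptor and CD28 leaves quiescence, grows and begins to divide, and its microRNA repertoire is known to be remodelled on the way, some microRNAs being induced and others lost with the turnover of Argonaute. The tables used here do not pair probe IDs with microRNA names, so probes appear by ID, markers of T cells or of other cells could not be read, and no sequence is shown. Nothing used here says whether probes with neighbouring numbers share a target.

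The values are those of the authors' deposited table, in log2 units, for 2191 of the 2500 probes of the array. The 798 tested probes had over 50% of spots well above background on 2 or more of 14 arrays. The array left out of that count was the first 42 h array. In its scanner file 49.9% of spots were marked as non-uniform, against at most 0.112% on the others, and its column in the table followed that file at a Spearman correlation of only 0.462, against 0.961 to 0.982 for the other 14. The column itself resembled that of the second 42 h array (r = 0.990 across probes, where the pairs of the other groups had 0.965 to 0.992). The numbers of probes called for this step and the named probes are therefore also given without it, while the other counts below include it. The arrays lay on 2 slides, each with 1 array of 24 h and 1 of 42 h. The slide of the first 42 h array was read from the scanner file that its column does not match.

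Between 24 and 42 h most probes moved little. The median difference (42 h minus 24 h) over the 798 probes was 0.01 log2, and the middle 50% of probes lay between -0.24 and 0.25. At the extremes 15 probes were at least 1 log2 (a doubling) higher at 42 h and 22 at least 1 log2 lower, and the range ran from -1.93 to 1.83. Both 42 h arrays lay above both 24 h arrays for 201 probes (25.2%) and below both for 234 (29.3%). Among the 37 probes that differed by at least 1 log2, the groups overlapped for 1.

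With limma on all 15 arrays, which share one estimate of the spread, 1 probe fell and 0 rose at a Benjamini-Hochberg adjusted p under 0.05 (0.125% of 798 probes called). A further 6 of each direction had an adjusted p under 0.1, and 92 probes had an unadjusted p under 0.05, of which 52 were higher and 40 lower at 42 h. Blocking by slide, 8 probes rose and 18 fell (3.26% called, 149 at an unadjusted p under 0.05). These 26 differed by at least 0.66 log2, and the blocked fit lacking the first 42 h array gave 0 calls, with 95 unadjusted. The unblocked fit called 0 probes with any of 3 arrays left out, the first or second of 24 h (46 and 67 unadjusted) or the first of 42 h (61 unadjusted), and 8 (3 higher, 5 lower) with either restimulated array left out. The median standard error of a difference was 0.27 log2 without the block and 0.22 with it.

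The probe that fell was UCSF033_000733, read by 7 spots. Its log2 value was 6.99 and 6.96 on the first and second 24 h arrays, and 5.32 and 5.60 on the first and second 42 h arrays. Both 42 h arrays lay below both 24 h arrays, by more than the spread within either pair. The difference was -1.51 log2 (SE 0.17, limma adjusted p = 0.00665, n = 2 each), a 2.86-fold lower value, with -1.39 on slide 1 and -1.64 on slide 2. In bulk RNA a smaller share of cells that hold a microRNA and less of it in each cell cannot be told apart. Without the first 42 h array it was -1.38 (adjusted p = 0.126), and with the first or the second 24 h array left out the adjusted p was 0.119 or 0.0721, so the call needed both arrays of 24 h and the first of 42 h.

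On the other arrays UCSF033_000733 read 8.35 and 8.59 in naive cells, 8.01 and 8.29 at 6 h, and 7.83 and 7.88 at 12 h. It read 4.65 and 4.56 at 65 h, 4.80 at day 7, and 4.45 and 4.70 after restimulation. The values at 24 and 42 h thus lay between a higher level on all earlier arrays and a lower level on all later ones. From 65 h on the probe was not well above background on any array, so those later values have no measured order, while on the second 42 h array all of its spots were above background.

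The other probe chosen among those lower at 42 h was UCSF033_000782, which missed the threshold. It read 11.85 and 11.58 on the first and second 24 h arrays and 9.85 and 9.72 on the first and second 42 h arrays. The pairs did not overlap, and the difference of -1.93 log2 was the lowest of the 798 (SE 0.32, limma adjusted p = 0.0551), or 3.80-fold, with -2.13 on slide 1 and -1.73 on slide 2. With the slide as a block its adjusted p was 0.0228, and without the first 42 h array, unblocked, the difference was -1.99 (adjusted p = 0.221). It read 13.48 and 13.35 in naive cells, 13.26 and 13.01 at 6 h, and 12.31 and 12.93 at 12 h. At 65 h it read 7.46 and 7.28, at day 7 8.33, and after restimulation 5.28 and 6.31. The probe stayed above background throughout, and the single rested array was the only later one above the 65 h pair.

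The highest positive difference belonged to UCSF033_001063, which read 8.53 and 8.11 on the first and second 24 h arrays and 10.14 and 10.16 on the first and second 42 h arrays. The difference was 1.83 log2 (SE 0.35, limma adjusted p = 0.0635), or 3.55-fold, with 1.63 on slide 1 and 2.03 on slide 2, and it passed with the slide as a block (adjusted p = 0.00888). The second 42 h array alone gave 1.84 (adjusted p = 0.231). Naive cells read 8.52 and 7.71, cells at 6 h 7.56 and 7.50, and cells at 12 h 7.74 and 7.33. The value was 10.59 and 10.70 at 65 h, 11.03 at day 7, and 10.12 and 11.15 after restimulation. All arrays up to 24 h lay at 8.53 or below and all from 42 h on at 10.12 or above, with no overlap.

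UCSF033_001067 had the next highest difference among probes of the same direction on both slides. It read 7.95 and 7.87 on the first and second 24 h arrays and 9.71 and 9.40 on the first and second 42 h arrays, a difference of 1.65 log2 (SE 0.29, limma adjusted p = 0.0551; 0.0286 with the slide as a block), or 3.13-fold. Its slides gave 1.46 and 1.84, and with the second 42 h array alone the adjusted p was 0.231. Naive cells read 8.09 and 7.58, cells at 6 h 6.88 and 7.33, and cells at 12 h 7.03 and 7.13. At 65 h it read 10.28 and 9.99, at day 7 10.11, and after restimulation 9.88 and 10.67. As with UCSF033_001063, the arrays up to 24 h and those from 42 h on did not overlap. Both probes were above background on all 14 arrays with a usable scanner file.

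**Figure D1:**
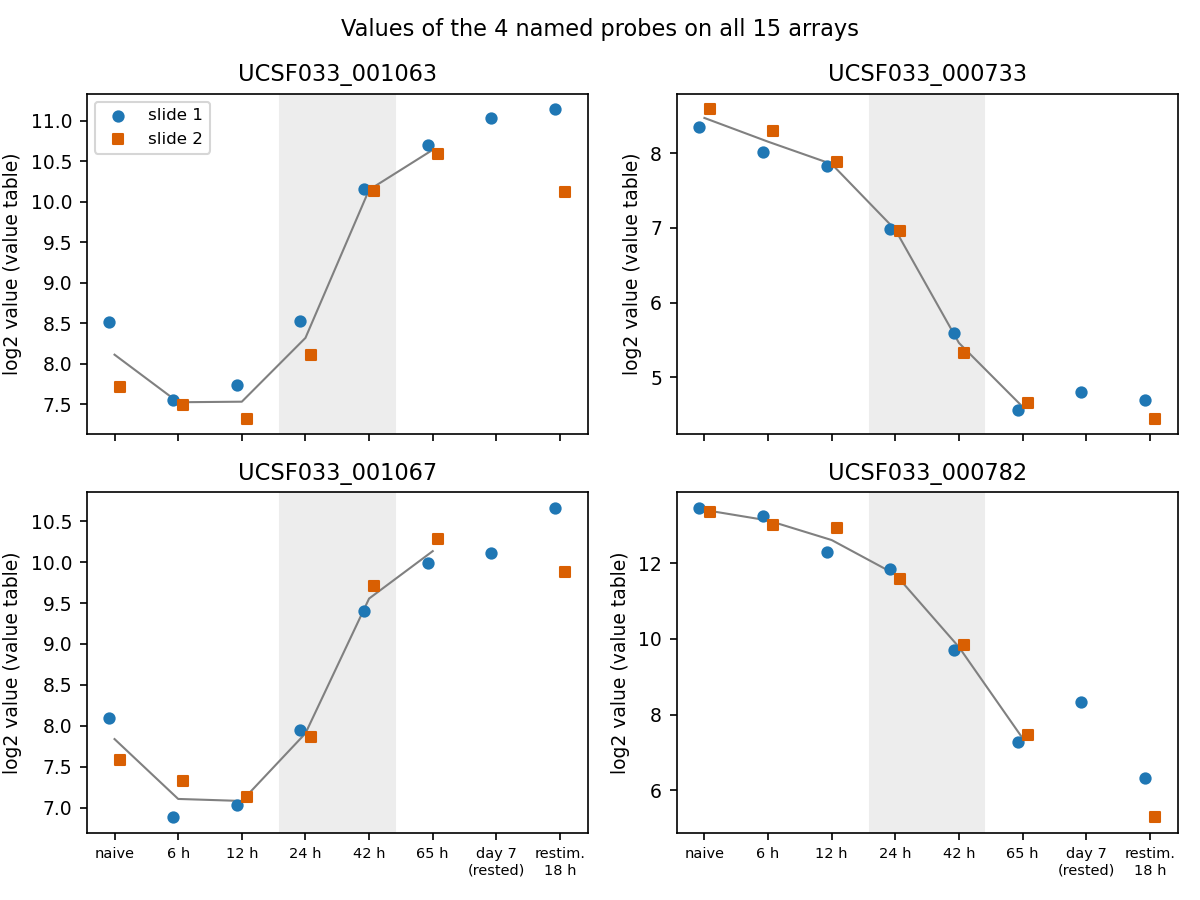
Log2 value of the 4 named probes (y axis, authors' table) on each of the 15 arrays, by group (x axis, ordered by time), with circles for slide 1, squares for slide 2, a line through the group means up to 65 h, and the 24 and 42 h groups shaded. The 2 probes on the left lay at 8.53 or below up to 24 h and at 9.40 or above from 42 h on, while the 2 on the right lay lower at the end of the shaded step, with differences of -1.51 and -1.93.

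Each slide held its own comparison of 42 h with 24 h, with no array in common. The differences on the slides correlated at r = 0.572 (Spearman 0.614) across the 798 probes, which are not independent of each other, and 71.3% of probes had the same sign on both. On slide 1, 34 probes were at least 1 log2 higher and 39 lower. On slide 2, where the 42 h array is the doubtful one, 14 were higher and 28 lower. The slides differed by at least 1 log2 for 37 probes, of which 28 had opposite signs, 25 of them higher at 42 h on slide 1 and lower on slide 2. The 3 probes that differed most between slides were 2.15 to 3.41 higher on slide 1 and at -0.29 to -1.59 on slide 2, and their adjusted p was 0.521 or above. All 26 probes called with the slide as a block had the same sign on both slides, which that selection nearly fixes.

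**Figure D2:**
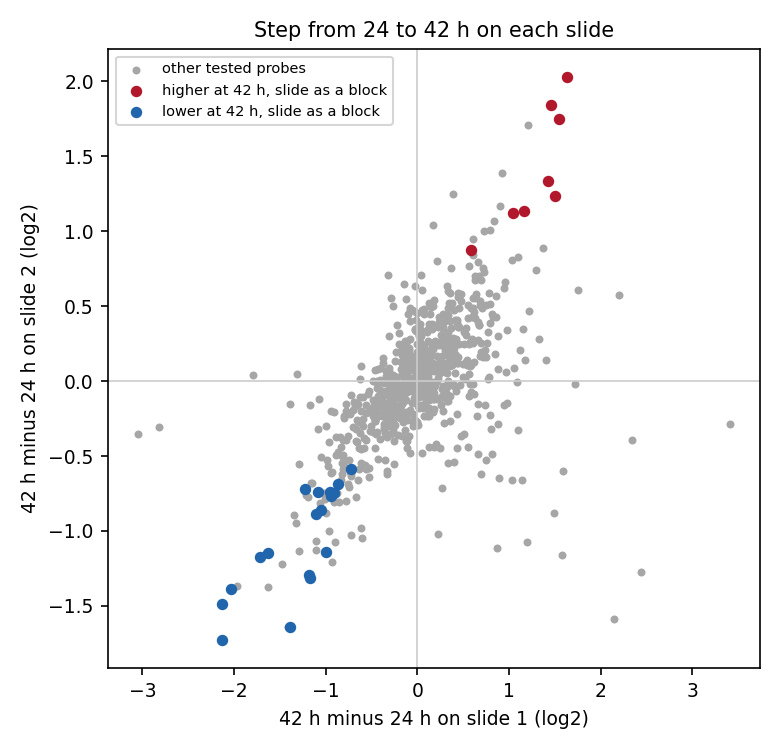
Difference between 42 h and 24 h for 798 probes on slide 1 (x axis, log2) and slide 2 (y axis, log2), with the 8 probes called higher and the 18 called lower in the blocked fit in colour. Coloured probes have the same sign on both slides, and 25 of the 28 probes with opposite signs and a gap of at least 1 log2 lie to the lower right.

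The first 42 h column was closer to the 24 h column of slide 2 (r = 0.989) than to that of slide 1 (r = 0.981) across probes. It was also closer to the first 65 h column, on slide 2 (r = 0.989), than that column was to the second 65 h column (r = 0.965). The second 42 h column, on slide 1, had r = 0.979 with the 24 h column of its own slide and 0.985 with the other. The first 65 h column thus lay nearer to a column of another time on its slide than to that of its own time.

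The comparison was repeated from the scanner files with the second 42 h array alone, scaled to the 75th percentile of probes detected on all 14 arrays. Of 995 probes tested, 1 rose and 1 fell (0.201% called, 143 at an unadjusted p under 0.05), under the assumption that the lone array varies as arrays of the other groups do. Those 143 were 107 higher and 36 lower, and without scaling between arrays the split was 6 higher and 31 lower, with 0 calls. The one that fell was again UCSF033_000733, by 1.34 log2 (SE 0.17, limma adjusted p = 0.0402). Some of its later arrays lay at the floor, and the adjusted p was 0.447 with a lower floor and 5.3e-05 with a higher one, at the same difference. The one that rose was UCSF033_001287, outside the rule for named probes and named because it was called. It was not above background on either 24 h array, and both its 24 h values lay at the floor set for dim signals. The fitted 2.32 log2 (SE 0.30, limma adjusted p = 0.0402) is therefore a bound, at least 4.98-fold higher against that floor, with an SE that rests on the floor. With a lower floor 0 probes were called. The bound of 4.98-fold depends on this scaling and floor. In the authors' table UCSF033_001287 read 4.81 and 4.80 on the 24 h arrays and 5.80 and 5.53 on the 42 h arrays, a difference of 0.86 (limma adjusted p = 0.102). Leaving out any 1 array of naive cells, 6, 12 or 24 h gave 0 calls (at least 88 unadjusted), leaving out either 65 h array gave 5, and leaving out either restimulated array gave 25. With the slide as a block 18 rose and 26 fell (4.42% called), and 25 of these 44 are in the authors' table. Of the 25, 10 were also among the 26 called there, all in the same direction.

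UCSF033_000782, UCSF033_001063 and UCSF033_001067 differed by -1.86, 2.31 and 1.89 log2 in the scanner files (limma adjusted p = 0.254, 0.202 and 0.162). The signs were those of the authors' table, and none passed. Across the 798 probes the sources correlated at r = 0.847, and 78.2% were counted as having the same sign. That share includes probes at the floor on both sides in the scanner files. They have no difference there, so their sign carries no direction. Both rest on the same 24 h arrays and the same second 42 h array, so this is no independent repeat. Under the scanner scaling the median of these probes lay 0.28 log2 above 24 h, and directions there are relative to that shift. The columns of the authors' table have medians of 4.38 to 4.41, close to the log2 of the median spot brightness before background subtraction (21 to 23). With the second 42 h array alone and each source centred on its median, the median absolute difference was 0.28 log2 in the table and 0.43 in the scanner files. In the scanner files, probes at the floor on both sides enter that median at the size of the shift.

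**Figure D3:**
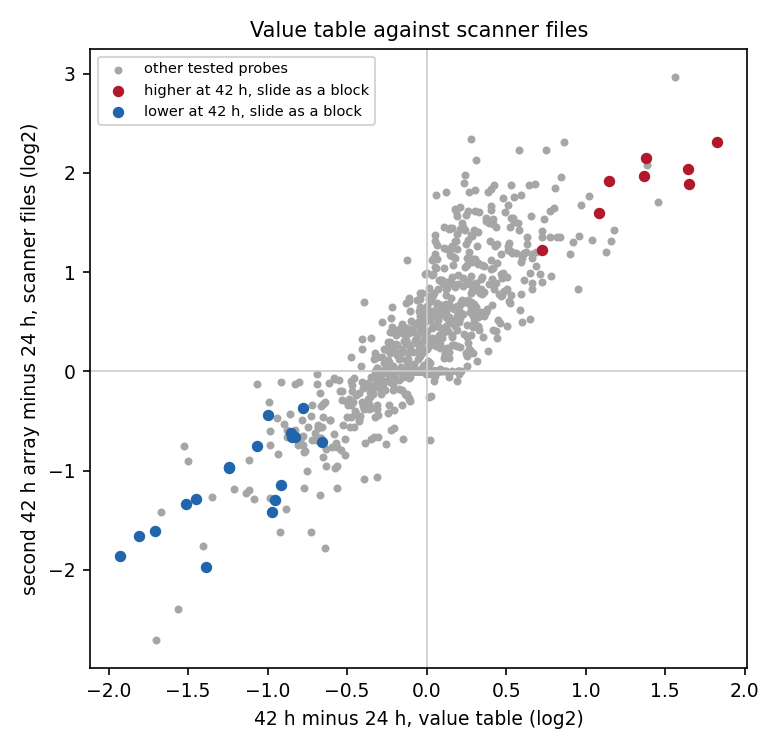
Difference between 42 h and 24 h for 798 probes in the authors' table (x axis, log2, 2 arrays each) against the second 42 h array minus the 24 h pair in the scanner files (y axis, log2). The coloured probes, called in the authors' table with the slide as a block, keep their sign, and the cloud of all probes is centred at 0.28 on the y axis.

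The scanner files also hold 197 tested probes outside the authors' table, of which 157 have a single spot. Their median difference was -0.33 log2 where the 798 had 0.28, and the 157 alone had -0.48. At an unadjusted p under 0.05, 6 of the 197 were higher and 22 lower at 42 h, and 0 passed adjustment without the block. In terms of detection over all 2500 probes of the array, 703 were above background on both 24 h arrays and 719 on the second 42 h array, with 658 in common. Of the rest, 45 were detected on both 24 h arrays and not on the second 42 h array, and 24 on that array and neither 24 h array.

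In the authors' table the larger differences lay among the brighter probes. With the 798 probes ordered by mean brightness and cut into 4 equal bins, the median absolute difference was 0.10 log2 in the dimmest bin, then 0.23, 0.37 and 0.41. No probe of the 2 dimmer bins differed by 1 log2, 13 of the third and 24 of the brightest did, and 17 of the 26 probes called with the slide as a block lay in the brightest. The 18 that fell had a median 24 h value of 9.38 and the 8 that rose one of 7.68, against 5.67 over all tested probes. With the second 42 h array alone and each source centred on its median, the bins had 0.13, 0.30, 0.47 and 0.43 log2 in the table, from dimmest to brightest, and 0.28, 0.61, 0.59 and 0.49 in the scanner files. The 0.28 of the dimmest bin in the scanner files equals the shift that centring took out. Probes at the floor on both sides have no difference before centring and take the size of that shift after it. The 0.28 is therefore not a measured difference. The order of the bins differed between the sources, and why was not tested.

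Neighbours in the numbering tended to differ alike. Over 486 pairs of consecutively numbered tested probes, 70.8% had differences of the same sign (r = 0.545 across pairs). Of the 26 probes called with the slide as a block, 11 had a neighbour called in the same direction, 3 among those that rose and 8 among those that fell. The unbroken run of tested numbers around UCSF033_000733 held 10 probes, 9 of them lower at 42 h and 4 called with the block, with differences from -1.51 to 0.23. That around UCSF033_000782 held 6 probes with differences from -1.93 to -0.0050, with 3 called with the block. UCSF033_001063 and UCSF033_001067 each stood in a run of 3 probes, all higher, with differences of 0.82 to 1.83 in the first run and 1.38 to 1.65 in the second.

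The probes of the step were then read on arrays that did not enter its difference, though they shared in the estimate of the spread behind the calls. The difference between 65 h and 12 h uses neither the 24 h nor the 42 h arrays. Its interval contains the step, so a probe that moves one way throughout has the same sign in both. Across the 798 probes it correlated with the step at r = 0.804, as a description, and 82.8% had the same sign. All 8 probes that rose with the slide as a block were higher at 65 h than at 12 h and all 18 that fell were lower, with median differences of 2.45 and -2.58 log2. Over all tested probes 376 were higher and 422 lower, with a median of -0.04. The wider sets at an unadjusted p under 0.05 went the same way: 49 of the 52 higher probes and 0 of the 40 lower ones were higher at 65 h.

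**Figure D4:**
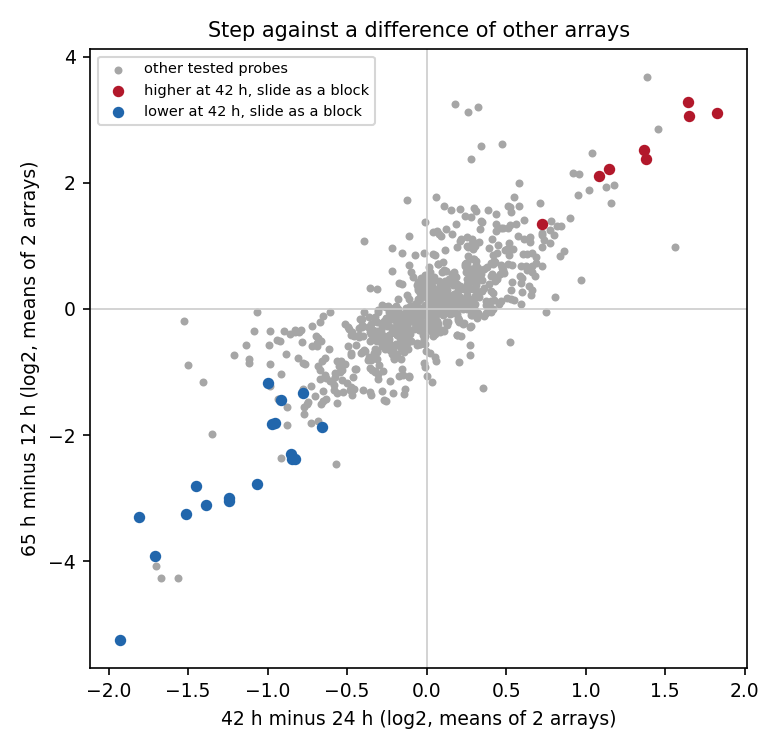
Difference between 42 h and 24 h (x axis, log2, means of 2 arrays each) against the difference between 65 h and 12 h on other arrays (y axis, log2), for 798 probes. The interval on the y axis contains that on the x axis. The 8 probes called higher and the 18 called lower with the slide as a block have the same sign on both axes, at medians of 2.45 and -2.58 on the y axis.

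The time course of these sets differed before and after the step. The sets were chosen on 42 h minus 24 h, so their 42 h values follow from that choice. All values given relative to 24 h share the 24 h arrays used in it. Relative to 24 h, the 8 probes that rose lay at a median of -0.70 in naive cells, -0.85 at 6 h and -0.81 at 12 h, so those groups were close together. They lay at 1.37 at 42 h, 1.59 at 65 h, 1.41 at day 7 and 1.19 after restimulation. The 18 that fell lay at 1.23 in naive cells, 1.05 at 6 h and 0.72 at 12 h, then at -1.03 at 42 h, -1.80 at 65 h, -0.85 at day 7 and -1.38 after restimulation. Among the arrays outside the step, the 8 were all higher in restimulated than in naive cells and the 18 all lower, by medians of 1.90 and -2.70. Over all tested probes 401 were higher and 397 lower in that comparison, which correlated with the step at r = 0.428, with 61.5% of the same sign. In the sets at an unadjusted p under 0.05, 46 of the 52 higher probes were higher in restimulated cells and 33 of the 40 lower ones were lower. Relative to 24 h the 52 lay at medians of 0.002 at day 7 and -0.06 after restimulation, and the 40 at -0.47 and -0.93.

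**Figure D5:**
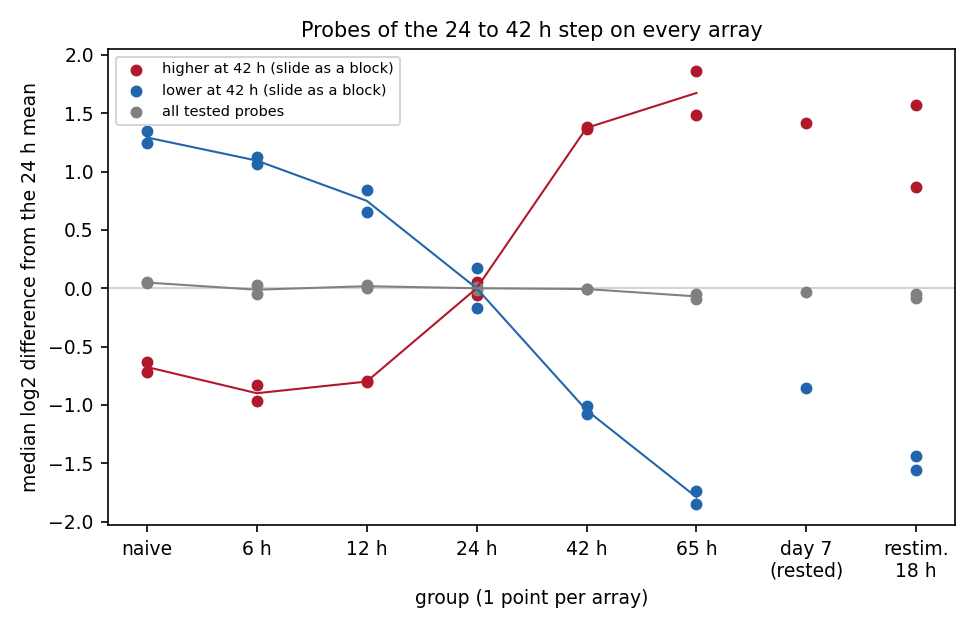
Median log2 difference from the 24 h mean (y axis) on each of the 15 arrays (points, by group on the x axis), for the 8 probes called higher and the 18 called lower in the blocked fit and for all 798 tested probes, with lines through the group means up to 65 h. The sets part by construction between 24 and 42 h, the median of the 8 lies between -0.97 and -0.63 on the 6 arrays before 24 h, and that of the 18 at -1.73 and -1.85 at 65 h.

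The steps on either side of this one differ in length and share arrays with it, so their values stand side by side. Per probe the median absolute step was 0.20 log2 from 12 to 24 h (12 hours), 0.25 from 24 to 42 h (18 hours) and 0.22 from 42 to 65 h (23 hours). From 12 to 24 h 13 probes were at least 1 log2 higher and 1 lower, where the step from 24 to 42 h had 15 and 22, and the one from 42 to 65 h 26 and 13. In the same limma fit 0 probes passed from 12 to 24 h (0% called, 55 at an unadjusted p under 0.05; 2 rose with the slide as a block, 0.251%). From 42 to 65 h 4 rose and 1 fell (0.627% called), and with the slide as a block 14 rose and 13 fell (3.38%).

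The difference between steps was tested in the same fit. Against the step from 12 to 24 h, 0 of 798 probes passed in limma, with 5 at an unadjusted p under 0.05, and the blocked fit gave 0 too, with 12. Against the step from 42 to 65 h, 0 passed, with 54 unadjusted, and 0 with the block, with 75. UCSF033_000733 stepped by -0.88 from 12 to 24 h, -1.51 from 24 to 42 h and -0.85 from 42 to 65 h, and neither difference between its steps passed (limma, the lower adjusted p being 0.764). At 65 h it was not above background, so its last step has no exact size. UCSF033_000782 went by -0.91, -1.93 and -2.41 over the same steps, of which the last passed (adjusted p = 0.0170). UCSF033_001063 went by 0.79, 1.83 and 0.49, and UCSF033_001067 by 0.83, 1.65 and 0.58. For both, the middle step was the highest in value, and its difference from the neighbouring steps did not pass.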

How the data were processed

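Total RNA (50 ng per the series design) was isolated with Trizol and labelled with Cy3, per the labels' protocols. Scanner intensity is the background-subtracted processed signal of Agilent Feature Extraction, version 10.1.1.1 per the file headers, where the submitters' processing notes name 10.6. The authors' deposited table holds log2 values; they were made by steps not given in the sources used here. Column medians of 4.38 to 4.41 are near equal, and its normalization is otherwise unknown. Spot flags, coded 0 or 1, are as deposited.

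The table was used as deposited. Differences were tested with limma 3.58.1 (lmFit, eBayes) in R 4.3.3 on 15 arrays, group being the model's term. There were 7 residual degrees of freedom, and p-values were adjusted over 798 probes (Benjamini-Hochberg). For the scanner repeat, flagged and control spots were left out, spots averaged, and values floored at 0.582% of the 75th percentile (over 571 probes) before log2. Named probes were the 2 largest differences each way with the same sign on both slides, called ones first, then those at an unadjusted p under 0.05. The members and lists were chosen with earlier results of these data known. The procedure was tested on simulated data. Lists of microRNAs were not read, as probes have no names. Precision is limited by how few arrays there are.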

Additional observations from a re-analysis of the deposited data

Results flagged for a closer look

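The comparisons of groups above took the slide of the first 42 h array from its scanner file and used none of its intensities. That file held 2405 probes above background, where the naive arrays had 850 and 878 and the other 14 arrays 640 to 950. Its median spot brightness was 466, against 21 to 23. Whether the same hybridisation gave the table's column of that array was not tested beyond the correlations above.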

How the results depend on the processing

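Blocking by slide while leaving out the first 42 h array was chosen after seeing the data, as were the centred values by brightness bin. For 42 h against 24 h in the authors' table (1 call), limma called 26 with the slide as a block. With the 4 arrays alone it called 0 (153 at an unadjusted p under 0.05). It called 2 among probes detected on at least 7 of 14 arrays, and 4 after quantile normalization of the deposited values. Array quality weights gave 55 (32 higher, 23 lower, with 20 among the 26). All 15 scanner files gave 0 (179 higher and 4 lower at an unadjusted p under 0.05, 760 probes). The blocked fit lacking the first 42 h array is given above. Leaving out 1 array gave 0 to 8 calls: 0 without either 24 h array or the first 42 h array, 8 (3 higher, 5 lower) without either restimulated array, and 1 without any other. Without a restimulated array the median standard error was 0.23 log2. The test against the step from 42 to 65 h (0 calls) gave 0 to 3 when 1 array was left out, 3 without either restimulated array, and that against the step from 12 to 24 h gave 0 under every alternative run. The scanner repeat (2 calls) gave 1 with the percentile over all probes, 17 (12 higher, 5 lower) after quantile normalization, 0 without scaling (37 unadjusted), 0 after normexp (105), 0 with a lower floor (77 higher and 29 lower unadjusted), 43 with a higher floor (36 higher, 7 lower), 44 with the slide as a block, and 21 without a filter. Leaving out 1 array it gave 0 to 25: 25 without either restimulated array, 5 without either 65 h array, 2 without the day 7 array and 0 without any other. The cause was not tested. The 4 named probes had 140 values under alternatives, of which 116 kept the sign and the call or its absence, 15 gained the call, 9 lost it (all UCSF033_000733) and 0 reversed. Many alternatives, such as leaving out an array outside 24 and 42 h, cannot change the difference itself. For those the sign was fixed in advance, and only the call could change. With the 4 arrays alone UCSF033_000733 had an adjusted p of 0.0557. It was -0.31 with all 15 scanner files and -0.87 after normexp. With all 15 scanner files the median tested probe lay 1.48 log2 higher at 42 h. The -0.31 and the split of 179 higher and 4 lower are relative to that shift. The titles mark 1 array of each pair as a replicate and give no replicate numbers. The slide, which holds 1 array of each pair, was the only pairing fitted, and the day 7 array lay on slide 1 alone.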
